A study of Mus musculus with 6 samples.

Results

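The genes described here are 10 members of the transforming growth factor-beta (TGF-β) and bone morphogenetic protein (BMP) pathways, out of 24346 gene symbols measured by RNA-sequencing in tumor endothelial cells (ECs). They were chosen by symbol, by a rule that uses no measured value but was written with earlier results of these data known, and comprise the receptors and co-receptors Eng, Acvrl1, Bmpr2, Tgfbr1, Tgfbr2 and Tgfbr3, the inhibitory Smads Smad6 and Smad7, and the target genes Id1 and Id3. All 10 were listed in each of the 6 samples, and all 10 passed the filter of a mean of at least 1 FPKM, a read abundance scaled by the authors to transcript length and library size, as did 10964 genes in all. ECs were sorted as CD31-positive, CD45-negative cells from MC38 tumors, a mouse colon carcinoma grown under the skin of C57BL/6 WT mice (n = 3) or Apelin-KO mice on the C57BL/6 background (n = 3). The mice were 8 to 10 weeks old at inoculation, and tumors were analyzed at day 19. The labels of both groups also name saline, and how it was given to these animals is not stated. The knockout is present from embryogenesis on and is not limited to ECs. Nothing says whether each sample is a single animal, so p-values measure the spread between these samples.

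Ligands of the TGF-β and BMP family bind pairs of type I and type II receptor kinases, which phosphorylate Smad transcription factors. ECs are known for using both arms. ALK5, encoded by Tgfbr1, signals through Smad2 and Smad3, whereas ALK1, encoded by Acvrl1, responds to circulating BMP9 and BMP10 and signals through Smad1 and Smad5, with endoglin (Eng) as co-receptor. Loss of Eng or Acvrl1 function causes hereditary hemorrhagic telangiectasia, in which arteries and veins connect directly, and loss of BMPR2 function is a cause of pulmonary arterial hypertension. Smad6, Smad7, Id1 and Id3 are switched on by the pathway, and Smad6 and Smad7 in turn restrain it.

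The targeted gene Apln was at 432.4, 434.8 and 504.1 FPKM in WT 1, 2 and 3, compared with 9.96, 17.5 and 24.3 FPKM in Apelin-KO 1, 2 and 3, so each Apelin-KO sample was far below each WT sample. Estimated depth was 9010000 to 10270000 reads per sample. The 12 endothelial marker genes were all present, with a summed level of 3859 to 4564 FPKM in WT and 4669.9 to 4874 FPKM in Apelin-KO samples, and the groups did not overlap in this sum. Pecam1, which encodes the sorted antigen CD31, was higher in Apelin-KO ECs by 0.33 on the log2 scale at an unadjusted p of 0.0323 (limma, Benjamini-Hochberg adjusted p = 0.513). Markers of other cells were also present: the 12 hematopoietic genes summed to 235.4 to 775.5 FPKM in WT and 109.6 to 283.7 FPKM in Apelin-KO samples, the 8 fibroblast genes to 192.3 to 334.7 and 125.8 to 198.7 FPKM, and the 10 pericyte and smooth muscle genes to 145.1 to 184.8 and 191.2 to 215.6 FPKM, the last again without overlap. Kcnj8 and Abcc9 made up most of the pericyte sum, and the groups of each overlapped. Of the 7 pericyte genes tested, 5 had higher means in Apelin-KO ECs, 2 (Cspg4 and Tagln) had higher means in WT ECs, and 1, Rgs5, had an unadjusted p under 0.05. Rgs5 was at 3.48, 3.17 and 3.66 FPKM in WT, compared with 6.83, 7.86 and 8.67 FPKM in Apelin-KO samples (limma, Benjamini-Hochberg adjusted p = 0.214), and the part of these cells in the levels of the genes higher in Apelin-KO ECs was not tested. Ptprc, which encodes CD45, lay between 0.04 and 4.84 FPKM, Cd3e and Cd79a were under 0.3 FPKM, and Myh11 was under 0.8 FPKM. Of the 6 tumor epithelial markers, 5 were at or under 0.3 FPKM in every sample and Krt20 was at 6.41 to 20.6 FPKM. In sorted bulk samples, fewer cells of a type and less RNA per cell cannot be told apart.

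Ordered by mean FPKM, a scale that corrects for transcript length, the 10 genes fell into 4 tiers whose ranges did not overlap. Eng (522.6 FPKM over the 6 samples) and Id3 (522.0 FPKM) stood at ranks 98 and 99 of the 10964 genes tested, and Eng was the higher of the pair in 3 of 6 samples. Id1 (125.1 FPKM) and Tgfbr2 (113.9 FPKM) followed, again with overlapping ranges. Acvrl1 (48.5 FPKM) stood alone, below every value of Tgfbr2 and above every value of Bmpr2. The lowest tier held Bmpr2 (11.5 FPKM in WT and 12.5 FPKM in Apelin-KO ECs), Tgfbr1 (11.0 FPKM over the 6 samples), Smad7 (6.52 FPKM), Tgfbr3 (5.88 FPKM) and Smad6 (4.63 FPKM), and here the ranges of each pair of neighbours overlapped. An estimated 76.8 to 207 reads per sample lay behind Smad6, and 13070 to 18360 reads behind Eng.

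**Figure D1:**
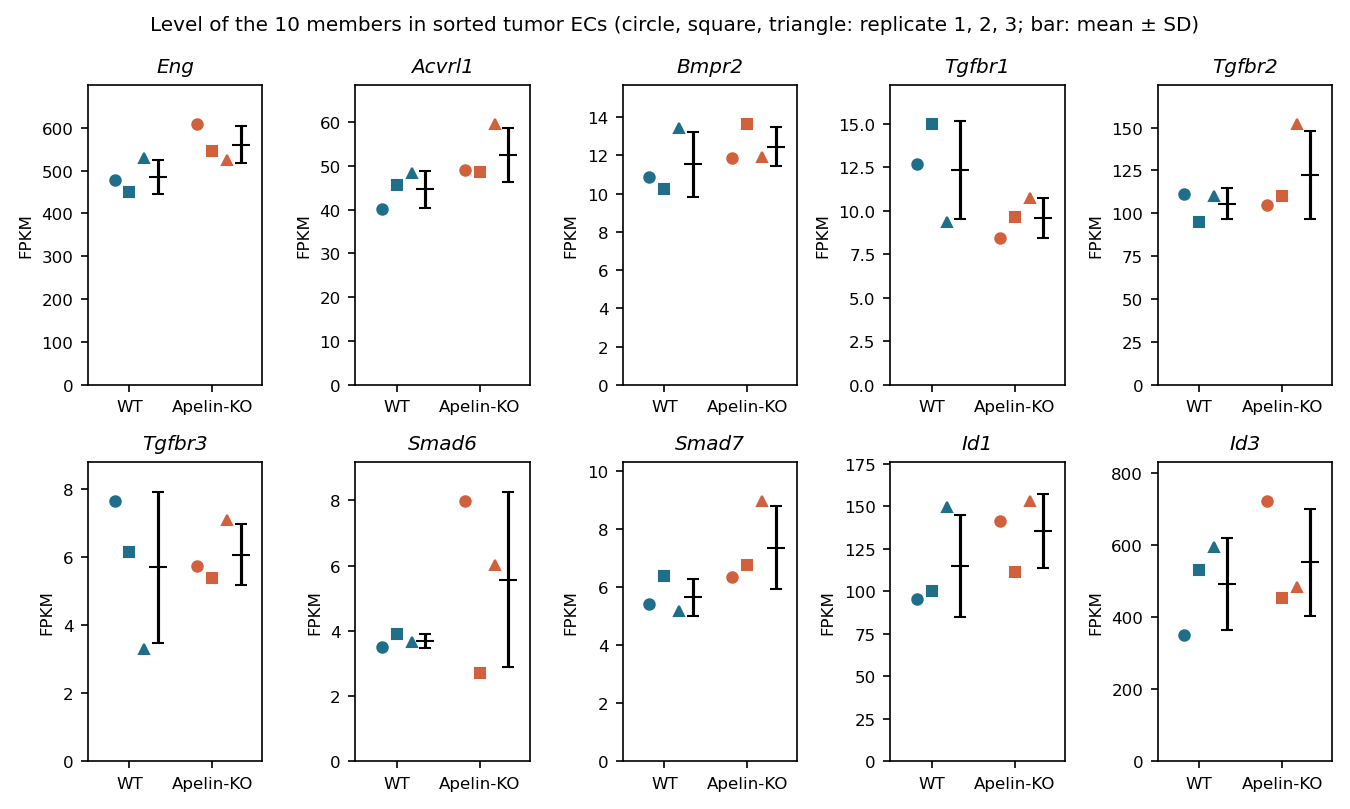
FPKM of the 10 members in each sample, with each panel on its own linear axis from 0; circles, squares and triangles are replicates 1, 2 and 3 of WT (blue) and Apelin-KO (orange), and the bars are the mean ± SD of 3 samples. Only for Acvrl1 do all 3 Apelin-KO samples lie above all 3 WT samples, by a margin of 48.3 against 48.7 FPKM.

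None of the 10 genes passed the test between WT and Apelin-KO ECs after correction. Log2(FPKM + 1) was tested with limma, and fold changes are WT minus Apelin-KO. By this test 0 of 10 had a Benjamini-Hochberg adjusted p under 0.05, the lowest being 0.543, where the share over all genes tested was 0.00912%, which is Apln alone. At an unadjusted p under 0.05 the count was also 0 of 10, against 9.42% of all genes (5.17% higher in WT and 4.25% higher in Apelin-KO), and it was 0 of 10 with each gene's own variance. The means of 9 genes were higher in Apelin-KO ECs and that of Tgfbr1 was higher in WT ECs, where 52.5% of all genes tested ran toward Apelin-KO and 47.5% toward WT. Relative to the mean of the endothelial markers in each sample, 4 of the 10 were higher in Apelin-KO and 6 in WT ECs. That marker list was itself higher in Apelin-KO ECs (mean log2 difference -0.22, WT minus Apelin-KO), so this scale moves every gene toward WT. The median over all genes tested moved from -0.01 to 0.21, so these reversals cannot show whether the direction holds. The median log2 fold change of the 10 genes was -0.20 on the FPKM scale and 0.02 relative to the endothelial markers. On both scales it lay below the median of all genes tested. It was -0.20 with median ratio scaling and -0.15 with quantile normalisation. The groups did not overlap for 1 of 10 genes, Acvrl1, against 14.4% of all genes tested (6.61% with WT above and 7.77% with Apelin-KO above). Without WT 3 the groups did not overlap for 5 of the 10 (Eng, Acvrl1, Bmpr2 and Id1 with Apelin-KO above, Tgfbr1 with WT above), when 30% of all genes did not overlap. The 95% intervals, which are on log2(FPKM + 1), lay inside a 2-fold difference for 9 of the 10 genes, with Smad6 as the exception, and for 92.3% of all genes tested. The added 1 makes fold differences of genes at low FPKM smaller: the log2 fold change of Smad6 was -0.39 with 1 added and -0.45 with 0.1 added. The intervals lay inside a 1.5-fold difference for 4 of the 10 (Eng, Acvrl1, Bmpr2 and Tgfbr2) and for 71.3% of all genes tested. With 3 against 3 samples, an exact permutation test cannot go below p = 0.1.

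**Figure D2:**
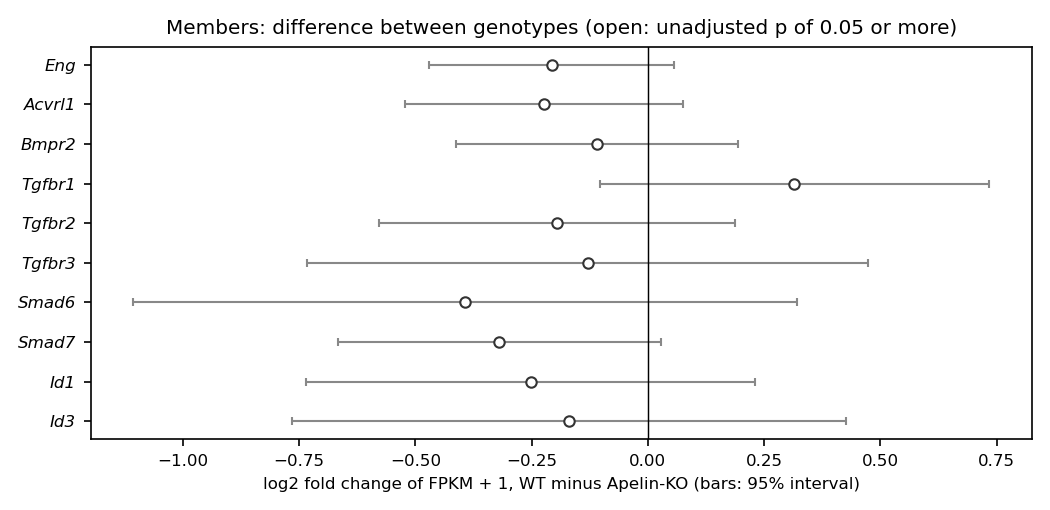
Log2 fold change of FPKM + 1, WT minus Apelin-KO, for each member (points) with its 95% interval from limma (bars). Each interval includes 0, and the widest is that of Smad6, from -1.11 to 0.32.

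To show what lies before the start of members at different levels, 250 bases upstream of the RefSeq start are printed for Eng, the most abundant member, for Tgfbr1, the member with the higher mean in WT ECs, and for Smad6, the member with the widest interval (RefSeq, GRCm38.p6). RNA-sequencing does not measure these windows, and nothing in the comparison was drawn from them. Of the 10 members, 6 were matched by symbol, with 7 windows. The windows were searched on both strands for GGCGCC, a GC-rich Smad motif that reads the same on both strands, and for CAGACA, which holds the Smad-binding core. Matches are in capitals. GGCGCC was found in 9.59% and CAGACA in 17.1% of 32851 windows of the same length. Of the 7 windows, 2 held GGCGCC (Bmpr2 and the first start of Tgfbr1) and 1 held CAGACA (the second start of Tgfbr1, not printed). Eng and Smad6 held neither. G and C made up 62.4% of the Eng window, 74.8% of the Tgfbr1 window and 66.8% of the Smad6 window.
Eng, chr2:32646345-32646594, plus strand: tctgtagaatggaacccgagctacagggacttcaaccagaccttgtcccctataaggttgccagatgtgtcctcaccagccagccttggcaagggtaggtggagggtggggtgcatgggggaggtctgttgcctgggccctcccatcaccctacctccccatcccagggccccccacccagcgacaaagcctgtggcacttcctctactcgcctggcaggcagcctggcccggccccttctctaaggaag
Tgfbr1, chr4:47352972-47353221, plus strand: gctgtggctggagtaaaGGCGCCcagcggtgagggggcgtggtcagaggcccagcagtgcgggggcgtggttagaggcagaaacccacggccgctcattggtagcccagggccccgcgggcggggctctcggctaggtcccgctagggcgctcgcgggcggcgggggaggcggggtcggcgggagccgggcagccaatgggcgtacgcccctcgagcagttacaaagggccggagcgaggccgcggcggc
Smad6, chr9:64022060-64022309, minus strand: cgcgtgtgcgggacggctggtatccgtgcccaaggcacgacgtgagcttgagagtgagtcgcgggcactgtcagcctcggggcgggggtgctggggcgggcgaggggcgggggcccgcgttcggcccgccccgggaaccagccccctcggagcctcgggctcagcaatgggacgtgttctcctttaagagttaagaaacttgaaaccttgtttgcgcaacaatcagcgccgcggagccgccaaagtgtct

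None of the genes of the ALK1 receptor complex passed the test, and their means were higher in Apelin-KO ECs on the FPKM scale, whereas relative to the endothelial markers the log2 fold changes were 0.01 for Eng, -0.01 for Acvrl1 and 0.11 for Bmpr2. Eng, the co-receptor of ALK1, spans 32646595 to 32682669 of chromosome 2 (build GRCm38, plus strand). It was at 477.0, 450.0 and 528.6 FPKM in WT 1, 2 and 3, compared with 608.5, 545.7 and 525.7 FPKM in Apelin-KO 1, 2 and 3. WT 3 lay just above Apelin-KO 3, so the groups overlapped by that pair alone. The group means were 485.2 ± 39.9 FPKM in WT and 560.0 ± 43.2 FPKM in Apelin-KO ECs (SD, n = 3 each), and the fitted log2 fold change was -0.21 (standard error 0.11; limma, Benjamini-Hochberg adjusted p = 0.600). Acvrl1, which encodes ALK1, spans 101128522 to 101145336 of chromosome 15 (plus strand). It was at 40.0, 45.7 and 48.3 FPKM in WT, compared with 49.0, 48.7 and 59.5 FPKM in Apelin-KO samples. Each Apelin-KO sample lay above each WT sample, with the exact permutation p at its smallest possible value of 0.1. The means were 44.7 ± 4.24 and 52.4 ± 6.16 FPKM (SD, n = 3 each), and the log2 fold change was -0.22 (standard error 0.13; limma, Benjamini-Hochberg adjusted p = 0.614). It was -0.13 without Apelin-KO 3 and -0.15 without WT 1, and relative to the endothelial markers the groups of Acvrl1 overlapped.

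Bmpr2, the type II receptor that pairs with ALK1, spans 59763400 to 59879014 of chromosome 1 (plus strand). It was at 10.9, 10.3 and 13.5 FPKM in WT, compared with 11.8, 13.6 and 11.9 FPKM in Apelin-KO samples. A single WT sample, WT 3, lay among the Apelin-KO values. The means were 11.5 ± 1.69 and 12.5 ± 1.01 FPKM (SD, n = 3 each), and the fitted log2 fold change was -0.11 (standard error 0.13; limma, Benjamini-Hochberg adjusted p = 0.813). With a sample left out, the log2 fold change of Bmpr2 ranged from -0.22 without WT 3 to -0.04 without WT 2. The annotation places genes on the opposite strand across part of Eng (Fpgs), Acvrl1 (Gm16031) and Tgfbr3 (Gm8145), and among other pathway genes Tgfb3 (Ttll5), Inhba (Gm48444), Acvr2a (Orc4) and Cd109 (4921509A06Rik). The strand setting of the authors' quantification is not given in the sources used here.

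None of the TGF-β receptors passed the test. On the FPKM scale the mean of Tgfbr1 was higher in WT and those of Tgfbr2 and Tgfbr3 were higher in Apelin-KO ECs, whereas relative to the endothelial markers the log2 fold changes were 0.53 for Tgfbr1, 0.02 for Tgfbr2 and 0.09 for Tgfbr3. Tgfbr1, which encodes the type I receptor ALK5, spans 47353222 to 47414931 of chromosome 4 (plus strand). It was at 12.7, 15.0 and 9.36 FPKM in WT 1, 2 and 3, compared with 8.42, 9.67 and 10.7 FPKM in Apelin-KO 1, 2 and 3. WT 1 and WT 2 were the highest, and WT 3 lay inside the Apelin-KO range. The means were 12.35 ± 2.83 and 9.60 ± 1.16 FPKM (SD, n = 3 each), the log2 fold change was 0.32 (standard error 0.18; limma, Benjamini-Hochberg adjusted p = 0.611), and without WT 3 it was 0.49 at an unadjusted p of 0.0156 (limma, Benjamini-Hochberg adjusted p = 0.302). Without WT 2 the log2 fold change of Tgfbr1 was 0.17 (limma, unadjusted p = 0.352). The unadjusted p relative to the endothelial markers was 0.0493 (limma, Benjamini-Hochberg adjusted p = 0.293). WT 1 and WT 2 were also the samples with the highest sums of hematopoietic markers (468.4 and 775.5 FPKM) and of fibroblast markers (323.8 and 334.7 FPKM), and their part in the level of Tgfbr1 was not tested.

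Tgfbr2, the type II receptor that binds TGF-β first, spans 116084293 to 116175360 of chromosome 9 (minus strand). It was at 111.1, 95.1 and 110.2 FPKM in WT, compared with 105.0, 110.1 and 152.0 FPKM in Apelin-KO samples. Apelin-KO 3 stood above the other 5 samples, which lay between 95.1 and 111.1 FPKM. The log2 fold change was -0.20 (standard error 0.16; limma, Benjamini-Hochberg adjusted p = 0.727), and without Apelin-KO 3 it was -0.03. Tgfbr3, which encodes the co-receptor betaglycan, spans 107106570 to 107289629 of chromosome 5 (minus strand). It was at 7.65, 6.14 and 3.30 FPKM in WT, compared with 5.74, 5.38 and 7.09 FPKM in Apelin-KO samples. The highest and the lowest of the 6 values were both in WT samples. The log2 fold change of Tgfbr3 was -0.13 (standard error 0.26; limma, Benjamini-Hochberg adjusted p = 0.898), and without WT 3 it was 0.16.

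The means of both inhibitory Smads were higher in Apelin-KO ECs, again without passing the test. Smad6, which mainly restrains BMP receptors, spans 63953076 to 64022059 of chromosome 9 (minus strand). It was at 3.51, 3.91 and 3.65 FPKM in WT, compared with 7.99, 2.70 and 6.01 FPKM in Apelin-KO 1, 2 and 3. The WT samples lay close together, whereas the Apelin-KO samples held both the highest values and the lowest value of the 6. An estimated 92.75 to 98.74 reads lay behind each WT value, so counting error limits what the spread of 3 samples can show. The coefficient of variation was 5.61% in WT and 48.0% in Apelin-KO ECs. The means were 3.69 ± 0.207 and 5.57 ± 2.67 FPKM (SD, n = 3 each), and the fitted log2 fold change was -0.39 (standard error 0.30; limma, Benjamini-Hochberg adjusted p = 0.706). Without Apelin-KO 2 the log2 fold change of Smad6 was -0.76 at an unadjusted p of 0.00203 (limma, Benjamini-Hochberg adjusted p = 0.345), without Apelin-KO 1 it was -0.12, and relative to the endothelial markers it was -0.18.

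Smad7, which restrains both arms of the pathway, spans 75367529 to 75395935 of chromosome 18 (plus strand). It was at 5.43, 6.39 and 5.17 FPKM in WT, compared with 6.34, 6.77 and 8.99 FPKM in Apelin-KO samples. WT 2 and Apelin-KO 1 differed by less than 0.1 FPKM, and they were the only pair out of order. The means were 5.66 ± 0.639 and 7.37 ± 1.42 FPKM (SD, n = 3 each), and the log2 fold change was -0.32 (standard error 0.15; 95% interval -0.67 to 0.03; limma, unadjusted p = 0.0664, Benjamini-Hochberg adjusted p = 0.543). Of the 10 genes, Smad7 had the lowest unadjusted p. It was 0.0396 with quantile normalisation and 0.0401 without Apelin-KO 1 (limma, Benjamini-Hochberg adjusted p = 0.511 and 0.556). Without Apelin-KO 3 the log2 fold change of Smad7 was -0.18 (limma, unadjusted p = 0.182), and relative to the endothelial markers it was -0.10 (limma, unadjusted p = 0.591).

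The target genes Id1 and Id3 encode inhibitors of basic helix-loop-helix transcription factors and are commonly read as a measure of BMP signalling. Id1 spans 152736251 to 152737410 of chromosome 2 (plus strand). It was at 95.2, 100.2 and 149.2 FPKM in WT 1, 2 and 3, compared with 141.5, 111.4 and 153.2 FPKM in Apelin-KO 1, 2 and 3. WT 3 was close to the highest Apelin-KO sample, and WT 1 and WT 2 were the lowest of the 6. The means were 114.9 ± 29.8 and 135.3 ± 21.6 FPKM (SD, n = 3 each), and the fitted log2 fold change was -0.25 (standard error 0.20; limma, Benjamini-Hochberg adjusted p = 0.721), and without WT 3 it was -0.45 at an unadjusted p of 0.0320 (limma, Benjamini-Hochberg adjusted p = 0.392). Without WT 1, WT 2 or Apelin-KO 3 the log2 fold change of Id1 was -0.13, -0.17 and -0.16, and relative to the endothelial markers it was -0.04. Id3 spans 136143497 to 136145755 of chromosome 4 (plus strand). It was at 349.7, 530.8 and 595.2 FPKM in WT, compared with 722.4, 451.8 and 481.9 FPKM in Apelin-KO samples. Its groups overlapped widely, with WT 2 and WT 3 above Apelin-KO 2 and Apelin-KO 3. The means were 491.9 ± 127 and 552.0 ± 148 FPKM (SD, n = 3 each), and the fitted log2 fold change was -0.17 (standard error 0.25; limma, Benjamini-Hochberg adjusted p = 0.859) that was 0.06 without WT 1 and 0.04 without Apelin-KO 1.

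Genes with a profile over the 6 samples most like that of Eng or Id1 were sought by the root mean square difference of log2(FPKM + 1) after centring each gene on its mean. For Eng these were Plxnd1, Pvrl3, Arhgef1, Gimap1 and Coro7, with differences of 0.0250 to 0.0359. Plxnd1, which encodes a semaphorin receptor of vessels, was at 119.1, 111.7 and 137.1 FPKM in WT, compared with 153.3, 140.0 and 136.5 FPKM in Apelin-KO samples, with WT 3 just above Apelin-KO 3 as for Eng. For Id1 they were Rnf183, Polr3gl, Ctdspl, Usf2 and Sox13, with differences of 0.0507 to 0.0744. Sox13, which encodes a transcription factor of the SOX family, was at 9.98, 11.7 and 15.0 FPKM in WT, compared with 15.6, 12.3 and 15.9 FPKM in Apelin-KO samples, low in WT 1, WT 2 and Apelin-KO 2 as was Id1.

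Among 62 other genes of the pathway, 46 entered the test, 0 passed at a Benjamini-Hochberg adjusted p under 0.05 (limma), and 9 had an unadjusted p under 0.05. Of these 9, 5 were higher in WT and 4 higher in Apelin-KO ECs. Over all genes tested these shares were 5.17% and 4.25%. The median log2 fold change of the 46 genes was -0.15, against -0.01 over all genes tested. Relative to the endothelial markers 9 of the 46 genes were under an unadjusted p of 0.05, when 17% of all genes were, and Cd109 and Ski were no longer among them. In each of the 6 fits that left out a sample, 4 of the 9 stayed under an unadjusted p of 0.05, namely Tgfb3, Inhba, Atoh8 and Ctgf. Tgfbi, Ltbp1, Ltbp3, Cd109 and Ski did not stay so in every such fit. Without WT 1 or without WT 2 only 4 genes of the lists were under 0.05, when the share over all genes also fell, to 6.19% and 4.91%. In the unmoderated form of the test, which uses each gene's own variance, only Inhba and Atoh8 of the 9 stayed under 0.05 (unadjusted p = 0.0458 and 0.0194). Tgfb3 (unadjusted p = 0.0608) and Ctgf (unadjusted p = 0.0501) were not under 0.05. Neither were Tgfbi, Ltbp1, Ltbp3, Cd109 and Ski (unadjusted p of 0.0714 to 0.102).

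**Figure D3:**
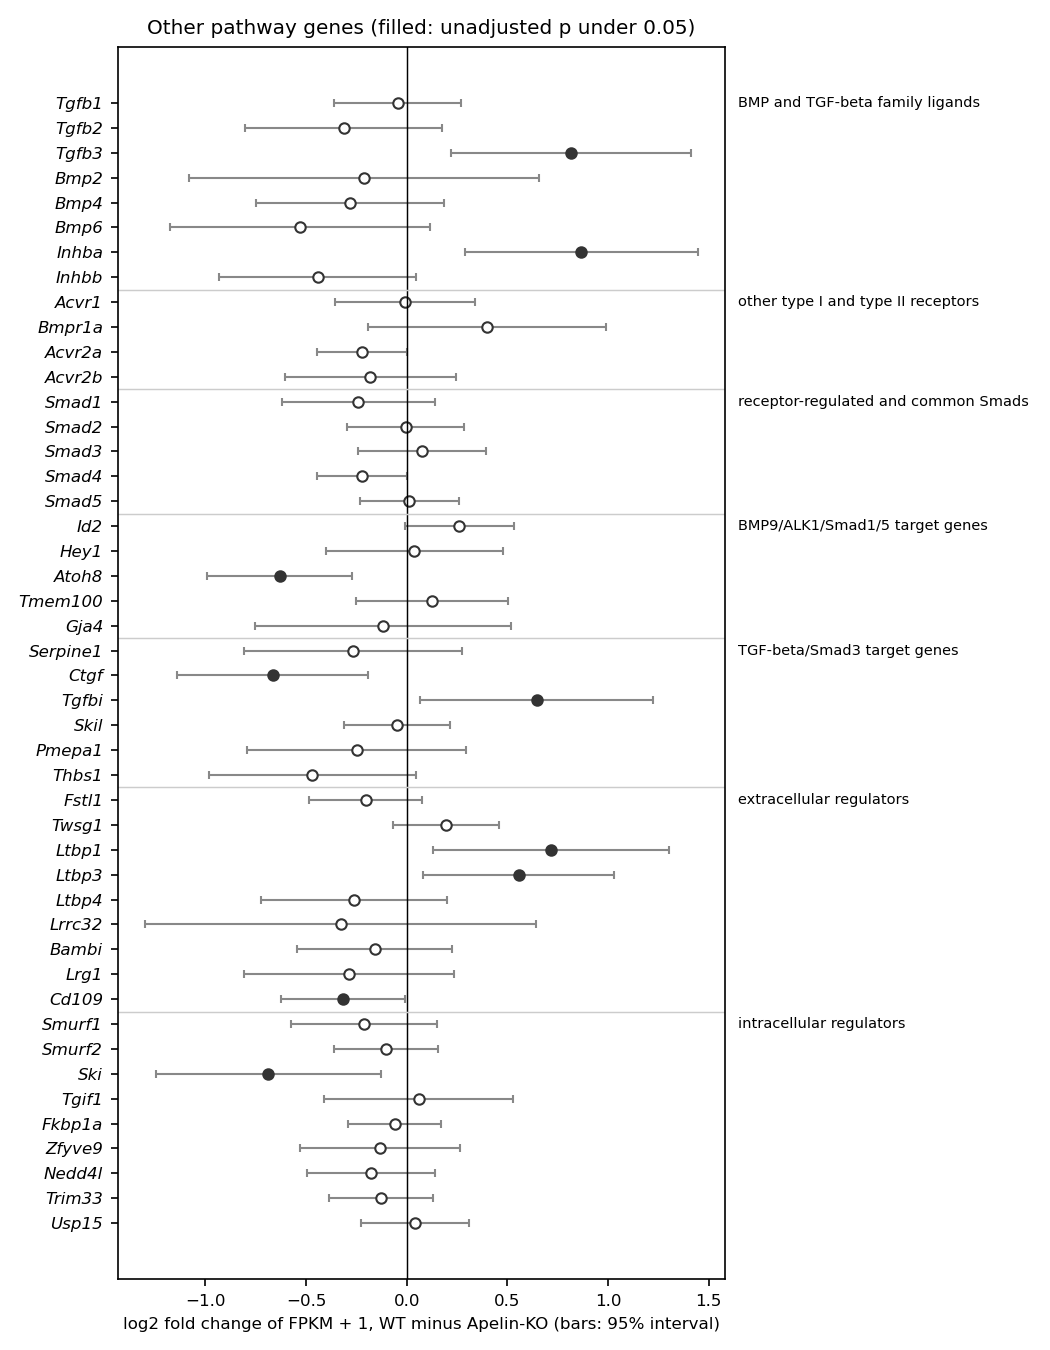
Log2 fold change of FPKM + 1, WT minus Apelin-KO, with 95% intervals from limma, for the 46 other pathway genes tested, grouped by role. Filled points mark the 9 genes with an unadjusted p under 0.05, 5 on the WT side and 4 on the Apelin-KO side.

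Of the 11 ligands, 8 entered the test, and 2 had an unadjusted p under 0.05, both higher in WT ECs. Tgfb3, which encodes TGF-β3, was at 11.6, 13.4 and 7.23 FPKM in WT, compared with 3.91, 6.37 and 6.55 FPKM in Apelin-KO samples. All WT samples lay above all Apelin-KO samples, and the log2 fold change was 0.82 (standard error 0.25; limma, Benjamini-Hochberg adjusted p = 0.501). Inhba, which encodes the activin A subunit, was at 6.96, 4.85 and 4.51 FPKM in WT, compared with 1.93, 3.96 and 1.91 FPKM in Apelin-KO samples. Its groups did not overlap either, and the fitted log2 fold change was 0.87 (standard error 0.24; limma, Benjamini-Hochberg adjusted p = 0.501). Inhbb, which encodes the activin B subunit and was the most abundant ligand gene, was at 44.9, 36.4 and 37.4 FPKM in WT, compared with 39.7, 56.6 and 69.6 FPKM in Apelin-KO samples, with a log2 fold change of -0.44 (limma, Benjamini-Hochberg adjusted p = 0.550). It was -0.66 without Apelin-KO 1 and -0.26 without Apelin-KO 3 (limma, unadjusted p = 0.00496 and 0.210), and relative to the endothelial markers it was -0.23. Gdf2 and Bmp10, which encode the circulating ALK1 ligands BMP9 and BMP10, were listed at 0 in all 6 samples.

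Of the 7 further receptors, 4 entered the test and 0 had an unadjusted p under 0.05. Acvr2a, an activin type II receptor and the most abundant of them, was at 8.52, 9.50 and 9.13 FPKM in WT, compared with 10.8, 10.2 and 11.1 FPKM in Apelin-KO samples. Its groups did not overlap, with a log2 fold change of -0.22 (limma, unadjusted p = 0.0530, Benjamini-Hochberg adjusted p = 0.525), and relative to the endothelial markers it was -0.00454. Of the 6 signal-carrying Smads, 5 entered the test and 0 had an unadjusted p under 0.05. Smad1, which transmits BMP signals and was the most abundant, was at 146.3, 121.9 and 135.6 FPKM in WT, compared with 126.6, 176.0 and 179.6 FPKM in Apelin-KO samples, with a log2 fold change of -0.24 (limma, Benjamini-Hochberg adjusted p = 0.665). It was -0.40 without Apelin-KO 1 and -0.15 without Apelin-KO 3 (limma, unadjusted p = 0.0162 and 0.413), and relative to the endothelial markers it was -0.02. Smad9 was listed at 0 in 5 of 6 samples.

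Among 7 further targets of ALK1 and Smad1/5 signalling, 5 entered the test and 1, Atoh8, had an unadjusted p under 0.05. Of these 5, 3 (Id2, Hey1 and Tmem100) had higher means in WT and 2 (Atoh8 and Gja4) had higher means in Apelin-KO ECs, with a median log2 fold change of 0.04. Id2, a relative of Id1 and Id3 named here after its values were seen, was at 55.9, 50.4 and 48.4 FPKM in WT, compared with 47.8, 39.9 and 41.1 FPKM in Apelin-KO samples, with no overlap (limma, unadjusted p = 0.0567, Benjamini-Hochberg adjusted p = 0.531). Atoh8, a basic helix-loop-helix factor, was at 1.28, 1.65 and 1.67 FPKM in WT, compared with 3.66, 2.25 and 2.94 FPKM in Apelin-KO samples. The groups did not overlap, and the log2 fold change was -0.63 (standard error 0.15; limma, Benjamini-Hochberg adjusted p = 0.501). For Atoh8 it was -0.41 relative to the endothelial markers (limma, unadjusted p = 0.0433) and -0.89 with 0.1 in place of 1 added to FPKM. Gja4, which encodes connexin 37 and was the most abundant of this list, was at 112.8, 127.5 and 184.0 FPKM in WT, compared with 210.6, 111.7 and 143.5 FPKM in Apelin-KO samples, with overlapping groups and a log2 fold change of -0.12 that was 0.10 relative to the endothelial markers (limma, Benjamini-Hochberg adjusted p = 0.912 and 0.804).

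Among 7 targets of TGF-β and Smad3 signalling, 6 entered the test, and 2 had an unadjusted p under 0.05, in opposite directions. Ctgf, which encodes connective tissue growth factor and was the most abundant of this list, was at 321.9, 251.7 and 315.9 FPKM in WT, compared with 349.3, 529.9 and 552.9 FPKM in Apelin-KO samples. The groups did not overlap, and the log2 fold change was -0.66 (standard error 0.20; limma, Benjamini-Hochberg adjusted p = 0.501). Tgfbi, which encodes a secreted matrix protein, was at 65.3, 59.0 and 39.4 FPKM in WT, compared with 25.0, 41.1 and 37.3 FPKM in Apelin-KO samples, and the fitted log2 fold change was 0.64 (standard error 0.25; limma, Benjamini-Hochberg adjusted p = 0.515).

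Of the 15 extracellular regulators, 9 entered the test and 3 had an unadjusted p under 0.05. The latent TGF-β binding protein genes Ltbp1 and Ltbp3 were higher in WT ECs, and Cd109, which encodes a TGF-β co-receptor that dampens signalling, was higher in Apelin-KO ECs. Ltbp1 was at 9.13, 8.27 and 4.82 FPKM in WT, compared with 3.02, 5.25 and 3.89 FPKM in Apelin-KO samples, and the fitted log2 fold change was 0.72 (standard error 0.25; limma, Benjamini-Hochberg adjusted p = 0.507). For Ltbp3 the log2 fold change was 0.56 and for Cd109 -0.31 (limma, Benjamini-Hochberg adjusted p = 0.512 and 0.525). The groups of Cd109 overlapped, with WT 3 at 74.9 FPKM above Apelin-KO 2 at 72.7 FPKM, and relative to the endothelial markers its log2 fold change was -0.10 (limma, unadjusted p = 0.476). Lrg1, which encodes a secreted modulator of TGF-β signalling in ECs and was the most abundant of this list, was at 500.3, 397.7 and 410.7 FPKM in WT, compared with 687.6, 382.0 and 564.5 FPKM in Apelin-KO samples, with overlapping groups and a log2 fold change of -0.29 (limma, Benjamini-Hochberg adjusted p = 0.708). It was -0.52 without Apelin-KO 2 and -0.10 without Apelin-KO 1 (limma, unadjusted p = 0.0177 and 0.647), and relative to the endothelial markers it was -0.07. All 9 intracellular regulators entered the test, and 1 had an unadjusted p under 0.05. Ski, which encodes a Smad co-repressor, was at 6.74, 6.30 and 7.46 FPKM in WT, compared with 13.1, 15.6 and 7.58 FPKM in Apelin-KO samples, and the fitted log2 fold change was -0.69 (standard error 0.24; limma, Benjamini-Hochberg adjusted p = 0.507). The most abundant of this list was Fkbp1a, at 978.1 to 1126.5 FPKM, which encodes a binding partner of type I receptors.

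Tgfbr1 and 4 of the 5 pathway genes with higher levels in WT ECs had profiles over the samples like those of markers of other cells. Tgfb3, Tgfbi, Ltbp1 and Ltbp3 were highest in WT 1 and WT 2 and lowest in Apelin-KO 1, as was Tgfbr1. The mean log2(FPKM + 1) of the fibroblast markers reached 3.72, 3.51 and 2.93 for WT 1, 2 and 3, compared with 2.62, 2.97 and 3.12 for Apelin-KO 1, 2 and 3. That of the hematopoietic markers reached 4.01, 4.42 and 3.10 for WT, compared with 2.28, 3.28 and 3.18 for Apelin-KO samples. All 6 fibroblast markers tested and all 10 hematopoietic markers tested had higher means in WT ECs, 4 of each at an unadjusted p under 0.05 and 0 at a Benjamini-Hochberg adjusted p under 0.05 (limma). The part of these cells in the levels of Tgfbr1, Tgfb3, Tgfbi, Ltbp1 and Ltbp3 was not tested.

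**Figure D4:**
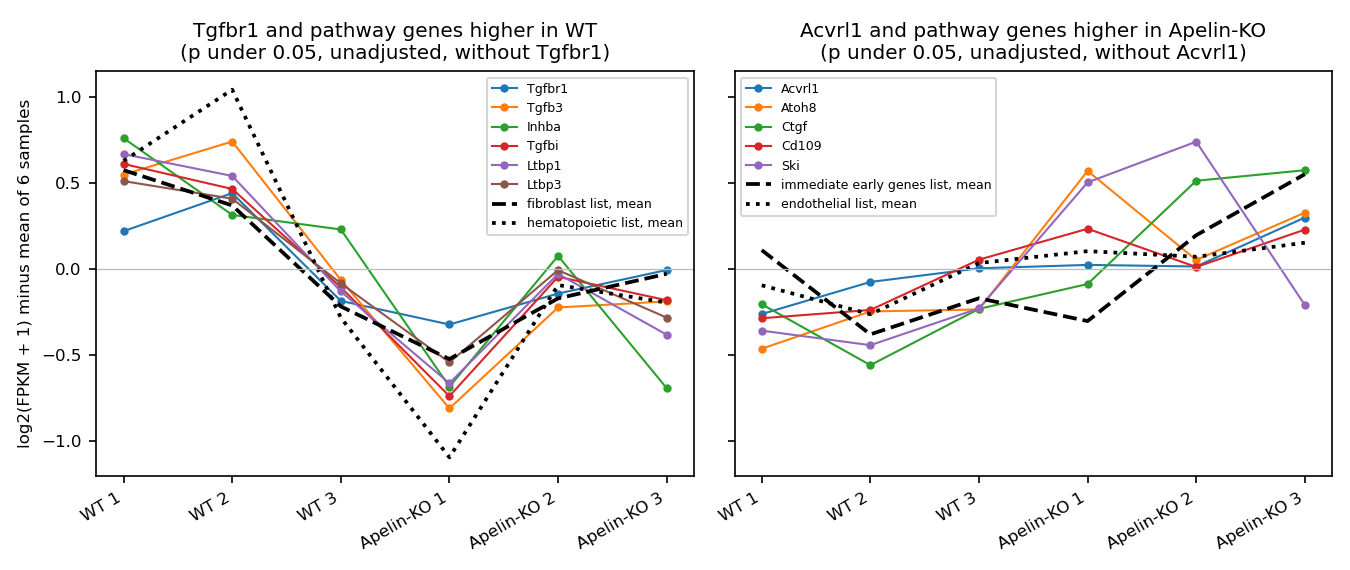
Log2(FPKM + 1) minus the mean of the 6 samples for Tgfbr1 and the 5 pathway genes higher in WT (left) and for Acvrl1 and the 4 pathway genes higher in Apelin-KO (right), with the mean of marker lists as dashed and dotted lines. Both sets of pathway genes are those with an unadjusted p under 0.05 (limma). Lines join the values of a gene and the samples have no order. On the left, WT 1 and WT 2 are high and Apelin-KO 1 is low for Tgfbr1, Tgfb3, Tgfbi, Ltbp1 and Ltbp3 and for both marker lists.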

How the data were processed

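Stranded mRNA libraries of sorted tumor ECs were sequenced by the authors in single-end mode and mapped to mm10. The submitters' processing notes name TopHat2 2.1.1, Bowtie2 2.2.4, SAMtools 1.0 and Cufflinks 2.2.1, and the versions of the mapping tools differ in the published methods. The deposited values are FPKM per gene symbol, computed by the authors with Cufflinks. Annotation, strand setting and filters are not given in the sources used here. Groups and replicate numbers come from the sample titles.

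FPKM were analysed as log2(FPKM + 1), keeping genes whose mean reached 1 FPKM. The 2 genotypes were compared by limma 3.58.1 under R 4.3.3 (two-sided moderated test, no block, Benjamini-Hochberg over all genes tested) and checked on simulated data. The published methods state a two-sided test without moderation, which was run as an alternative. The members and lists were chosen with earlier results of these data known. Pathway genes named by rule are those with an unadjusted p under 0.05 (limma) and the most abundant of each list. Outside this rule, Id2 was described after its values were seen, and Hey1, Tmem100, Gdf2, Bmp10 and Smad9 are mentioned briefly. Depth was estimated as the value between 4000000 and 16000000 reads at which low FPKM of 3742 single-transcript genes came closest to whole reads, assuming 200-base fragments, with 65.0% to 67.2% of low values within 0.1 of a whole read where chance gives 20%. Estimated reads of a gene use its longest transcript in GENCODE M21 (GRCm38), the source of gene positions, and cover counting error only.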

Additional observations from a re-analysis of the deposited data

How the results depend on the processing

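Of the 15 alternatives, 5 change the test or filter but not a fold change. Under the other 10, the 10 members gave 100 log2 fold changes, of which 92 kept their direction and 8 reversed. Under all 15, 0 passed at an adjusted p under 0.05 (limma, lowest 0.293). Smad6 was not tested at a mean of at least 5 FPKM. Relative to the endothelial markers, the values of Eng (0.00997), Bmpr2 (0.11), Tgfbr2 (0.0205), Tgfbr3 (0.0873), Id3 (0.0473), Gja4 (0.10) and Fkbp1a (0.16) reversed, the median of the members was 0.0152, and the groups did not overlap for 0 members; the alternative's construction, which subtracts a list that was itself higher in Apelin-KO ECs, moves the median of all genes from -0.01 to 0.21. With a sample left out, Tgfbr3 ranged from -0.34 to 0.16, Id3 from -0.32 to 0.0582 and Gja4 from -0.33 to 0.13, and the median of the members from -0.27 to -0.15. Members with an unadjusted p under 0.05 numbered 1 with quantile normalisation (Smad7, with 9.54% of all genes), 1 relative to the endothelial markers (Tgfbr1, with 17% of all genes), and 0 to 2 with a sample left out (4.91% to 11.2% of all genes). Members whose groups did not overlap numbered 2 with quantile normalisation (Acvrl1 and Smad7, with 14.9% of all genes) and 1 to 5 with a sample left out (20.1% to 30% of all genes), and the 0 relative to the endothelial markers stood beside 25.1% of all genes.

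Genes with an adjusted p under 0.05 over the whole table numbered 2 without the filter, with a mean of at least 5 FPKM and with an intensity trend, 0 with each gene's own variance, and 0 to 3 with a sample left out. Pathway genes with an unadjusted p under 0.05 numbered 4 with each gene's own variance (7.14% of all genes), 12 with quantile normalisation (9.54%), 12 of 59 tested without the filter (8.89%; 9 of 46 with it), 11 with an intensity trend (10%) and 4 to 12 with a sample left out (4.91% to 11.2%). Without the filter more genes were tested, but Acvr2a, tested in both fits, also went from an unadjusted p of 0.0530 to 0.0201 (limma). The causes of these changes were not tested. Same-numbered samples are not stated to share an animal or batch, and their deviations correlated at -0.139, 0.207 and -0.0186 across genes. With the replicate number as a block, the members past an unadjusted p of 0.05 stayed at 0, the pathway genes went from 9 to 8 (8.14% of all genes, against 9.42%), and the count over the whole table stayed at 1. Among the 10 members, depth limits Smad6, Smad7 and Tgfbr3 most, with at most 207, 346.5 and 458 estimated reads per sample. Of the named pathway genes, Atoh8 had fewer than any member, with an estimated 27.95 to 73.8 reads per sample.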

Other observations

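The balance of the type I receptors was computed per sample as Acvrl1 over Tgfbr1 FPKM, a ratio chosen after the values of both genes had been seen. It was 3.15, 3.05 and 5.16 for WT 1, 2 and 3, compared with 5.82, 5.04 and 5.55 for Apelin-KO 1, 2 and 3. WT 3 lay inside the Apelin-KO range (exact permutation test on the log2 ratio, two-sided, p = 0.2, where 0.1 is the smallest possible). The ratio of Id1 to Id3 was 0.272, 0.189 and 0.251 for WT, compared with 0.196, 0.246 and 0.318 for Apelin-KO samples (exact permutation test, two-sided, p = 0.8).

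Apelin-KO 3 held the highest value of the 6 samples for 4 of the 10 members (Acvrl1, Tgfbr2, Smad7 and Id1), for 19 of the 46 other pathway genes tested, or 41.3%, for 5 of the 12 endothelial markers, or 41.7%, and for 24.9% of all genes tested. It also held the highest value for all 9 immediate early genes listed, which are known to respond to tissue dissociation. Their summed level was 2782 FPKM in Apelin-KO 3 and 1514 to 2165 FPKM in the other 5 samples. The part of either marker list in the levels of these members was not tested.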
